A study of Mus musculus with 24 samples.

Results

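The nuclear pore complex is the channel in the nuclear envelope through which proteins and RNA pass, and its subunits are called nucleoporins. Soluble receptors carry cargo through it: importins bring proteins in, exportins take proteins and RNA out, and the small GTPase Ran sets the direction, because its GTP-bound form is made in the nucleus and its GTP is hydrolysed in the cytoplasm. Bulk mRNA leaves by a separate receptor, the heterodimer of Nxf1 and Nxt1. Described here are 54 such genes of the 14106 in a table of RNA-seq read counts from mouse B cells. They were chosen by name: genes that begin with Nup and a number, Kpna, Kpnb, Ipo and a number, or Xpo, together with Tpr, Rae1, Ndc1, Pom121, Seh1l, Tnpo1, Tnpo2, Tnpo3, Ran, Rangap1, Rcc1, Nxf1 and Nxt1.

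The Spt5-depleted cells were primary splenic B lymphocytes of genotype Supt5hFl/- Rosa26ERT2-cre/+, that is, with 1 floxed and 1 null copy of the gene for Spt5, a transcription elongation factor, and a Cre recombinase expressed from the Rosa26 locus that 4-hydroxytamoxifen (4-HT) activates. The cells are mature B cells by one label and immature by the growth protocol. The WT cells were Rosa26ERT2-cre/+ without an altered Spt5 allele and were given the same drug, so recombinase and drug were shared by both groups, while the null allele was not. All cells were stimulated with interleukin 4 and lipopolysaccharide for 28 h and then kept in 2 µM 4-HT for 32 h, 60 h of activation in all. Each group had 3 libraries of poly(A) RNA; mouse age is not given in the sources used here. Nothing in the labels ties each library to its own mouse, so the p-values reflect only the spread between libraries, which may be technical.

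The Spt5-depleted libraries held 17306549 to 21441575 counts and the WT libraries 23340978 to 25649611, so no depleted library was as deep as a WT library. Reads of the targeted gene, Supt5, numbered 189, 196 and 314 in depleted libraries, against 3796, 3512 and 4666 in WT libraries (log2 fold change -3.94 ± 0.14 SE, edgeR adjusted p = 1.26e-10). Xist, the RNA of the inactive X chromosome, had at most 1.73 CPM (counts scaled to a common library size with edgeR's TMM method) in depleted libraries and at least 468 CPM in WT libraries, and Y-linked Ddx3y had 704 to 1019 counts in depleted libraries and 0 to 1 in WT libraries, so genotype and sex cannot be told apart. The B cell markers Cd79a, Cd79b, Ms4a1 and Pax5 were present in both groups and not called, while Cd22 and Blnk fell (-1.48 and -0.74). Of markers of other spleen cells, 5 of 7 tested macrophage and monocyte genes rose. Of all tested genes 31.8% rose and 30.6% fell, the shares to set beside the counts in this and the following lists. The summed level of all 9 in the table was 107 to 187 CPM in depleted libraries and 77.3 to 104 CPM in WT libraries. Mpeg1 made up most of it, with 78.5 to 124 CPM in depleted and 53.6 to 76.9 CPM in WT libraries. Among the 5 that rose, Csf1r, Emr1 and Itgam overlapped between the groups. Of 4 tested NK cell genes 2 fell, with a summed level of 10.1 to 20.1 CPM in depleted libraries and 30.0 to 41.1 CPM in WT libraries. Of 9 T cell genes 1 fell, with sums of 171 to 195 CPM in depleted libraries and 208 to 233 CPM in WT libraries. Most of these sums was Thy1, with 148 to 177 CPM in depleted and 163 to 189 CPM in WT libraries. Thy1 overlapped between the groups and was not called. Of 4 tested dendritic cell genes 2 rose, with sums of 154 to 168 CPM in depleted libraries and 140 to 191 CPM in WT libraries. The neutrophil list summed to at most 4.31 CPM in any library. The part of these cells in the values below was not tested, and in bulk RNA fewer cells of a type and less RNA per cell cannot be told apart.

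More of the transport genes were lower than higher in Spt5-depleted cells. Of 52 that passed the filter on low counts, 29 fell (adjusted p under 0.05, edgeR's quasi-likelihood test), 6 rose and 17 were not called. Among all 12024 tested genes 30.6% fell and 31.8% rose, 62.4% being called in either direction. The median log2 fold change was -0.30 over the 52 and 0.00 over all tested genes, and per library the members' median log2 ratio to the WT mean was -0.32, -0.28 and -0.29 in the depleted libraries and 0.10, -0.06 and -0.03 in the WT libraries. In 30 members the 3 depleted libraries lay wholly below the WT libraries and in 7 wholly above, against 33.3% and 34.2% of all tested genes. At least 2-fold lower were 4 of the 52, Rcc1, Kpna2, Kpnb1 and Ran, about the share of all tested genes (7.63%). Only Nup210l rose that far (9.87% of all tested genes did). Apart from Nup210l, the tested members had mean levels of 29.7 to 1305 CPM, and of the 5682 tested genes in that range 34.5% fell and 30.3% rose, with a median of -0.02.

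**Figure D1:**
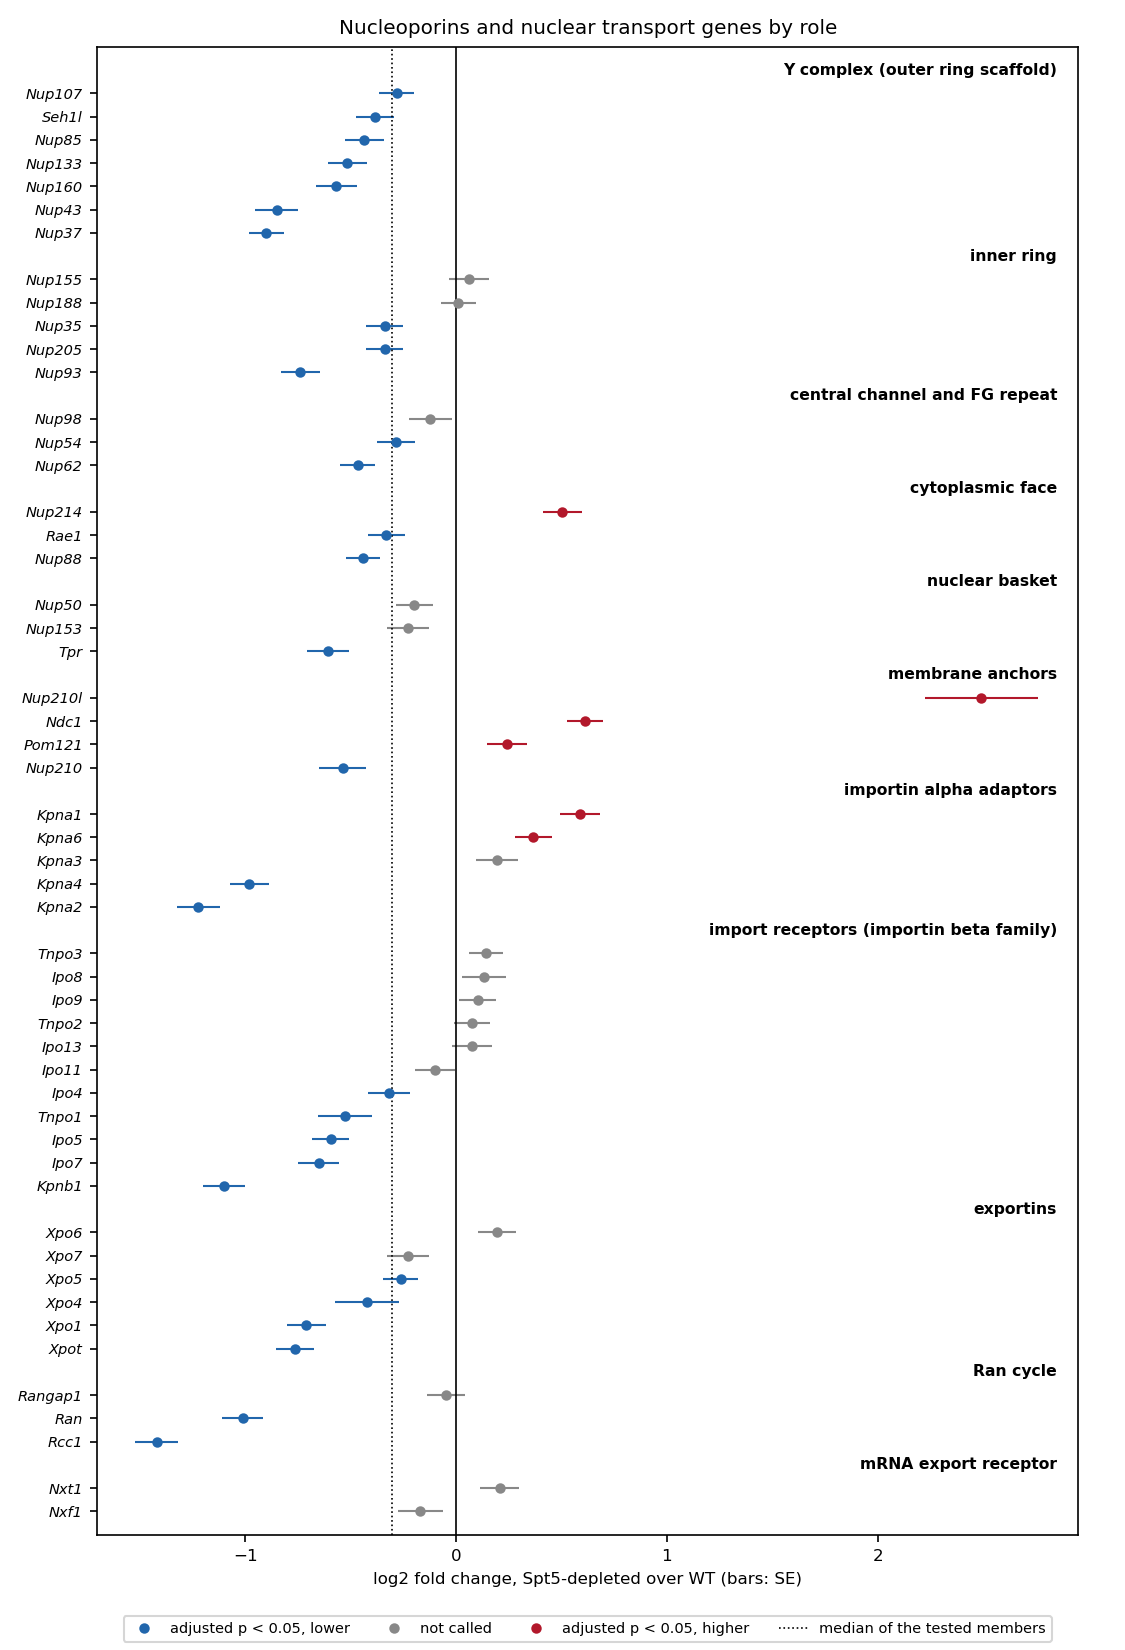
Log2 fold change (Spt5-depleted over WT, x axis) of the 52 tested transport genes, grouped by role, with bars for the SE and colours for the call; the dotted line is their median. All 7 genes grouped here as the Y complex lie left of 0. The importin alpha and membrane anchor groups hold genes on both sides, up to Nup210l at 2.49.

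The balance of rises and falls depended on the scaling. Scaled by library totals alone, which moved the median of all tested genes to 0.16, 21 transport genes fell and 13 rose, where 22.4% of all tested genes fell and 41.3% rose. With TMM 36 of the 52 had a log2 fold change below the median of all tested genes, a count that another scaling leaves nearly fixed by construction, since it moves all genes by about the same amount. In the authors' deposited table, whose adjusted p was used here with a threshold of 0.05, 30 of the 54 were lower and 6 higher, against 25.7% and 26.4% of all its genes. All 35 calls made here among the members were also called in the authors' deposited table, in the same direction.

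**Figure D2:**
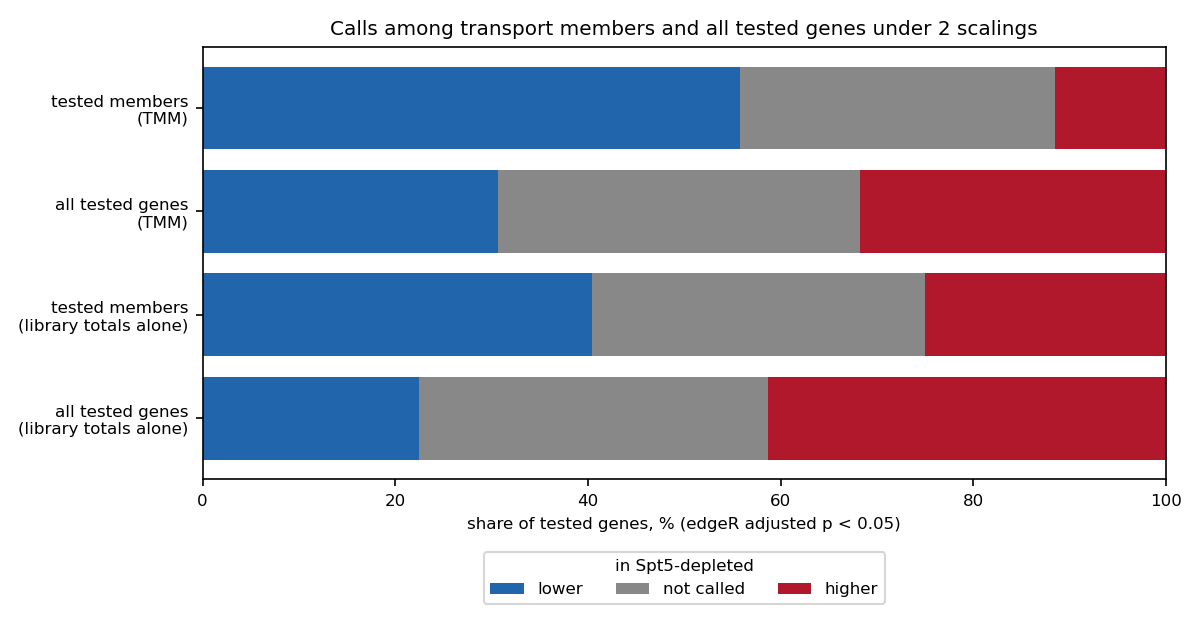
Share of tested genes (%) called lower, not called and called higher in Spt5-depleted cells, for the 52 transport genes and for all 12024 tested genes, under TMM scaling and under library totals alone. Under both scalings the lower share is larger among the transport genes (29 and 21 genes) than among all tested genes (30.6% and 22.4%).

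The Ran cycle held the largest fall. Rcc1, the chromatin-bound exchange factor that loads Ran with GTP in the nucleus, had 37.1, 39.2 and 39.3 CPM in Spt5-depleted libraries, against 95.6, 94.5 and 119 CPM in WT libraries. The highest depleted library was thus under the lowest WT library by a wide margin (log2 fold change -1.42 ± 0.10 SE, edgeR adjusted p = 3.11e-08). Ran itself had 928, 870 and 799 CPM in depleted libraries, against 1832, 1557 and 1843 CPM in WT libraries, without overlap (-1.01 ± 0.10 SE, adjusted p = 5.85e-07). Ran has near-identical retrocopies in the mouse genome, and how reads that map to several places were counted is not given in the sources used here, so its counts are uncertain to that extent. Rangap1, which makes Ran hydrolyse its GTP on the cytoplasmic side, had 189, 186 and 182 CPM in depleted libraries and 200, 171 and 204 CPM in WT libraries. Its groups overlapped and it was not called (-0.05 ± 0.09 SE, adjusted p = 0.654).

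Ratios of read counts within a library do not depend on the scaling, and their changes compare members with each other. They are given without a test, since the pairs were picked with the values known. In 10 of the 11 pairs computed the groups did not overlap, a count that this choice of pairs favours. Rcc1 counts were 0.197, 0.211 and 0.216 of those of Rangap1 in Spt5-depleted libraries, against 0.478, 0.552 and 0.583 in WT libraries. Ran counts were 4.92, 4.67 and 4.39 times those of Rangap1 in depleted libraries, against 9.15, 9.10 and 9.03 times in WT libraries. Both the exchange factor and the GTPase were thus lower relative to the GTPase activator in every depleted library than in any WT library.

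**Figure D3:**
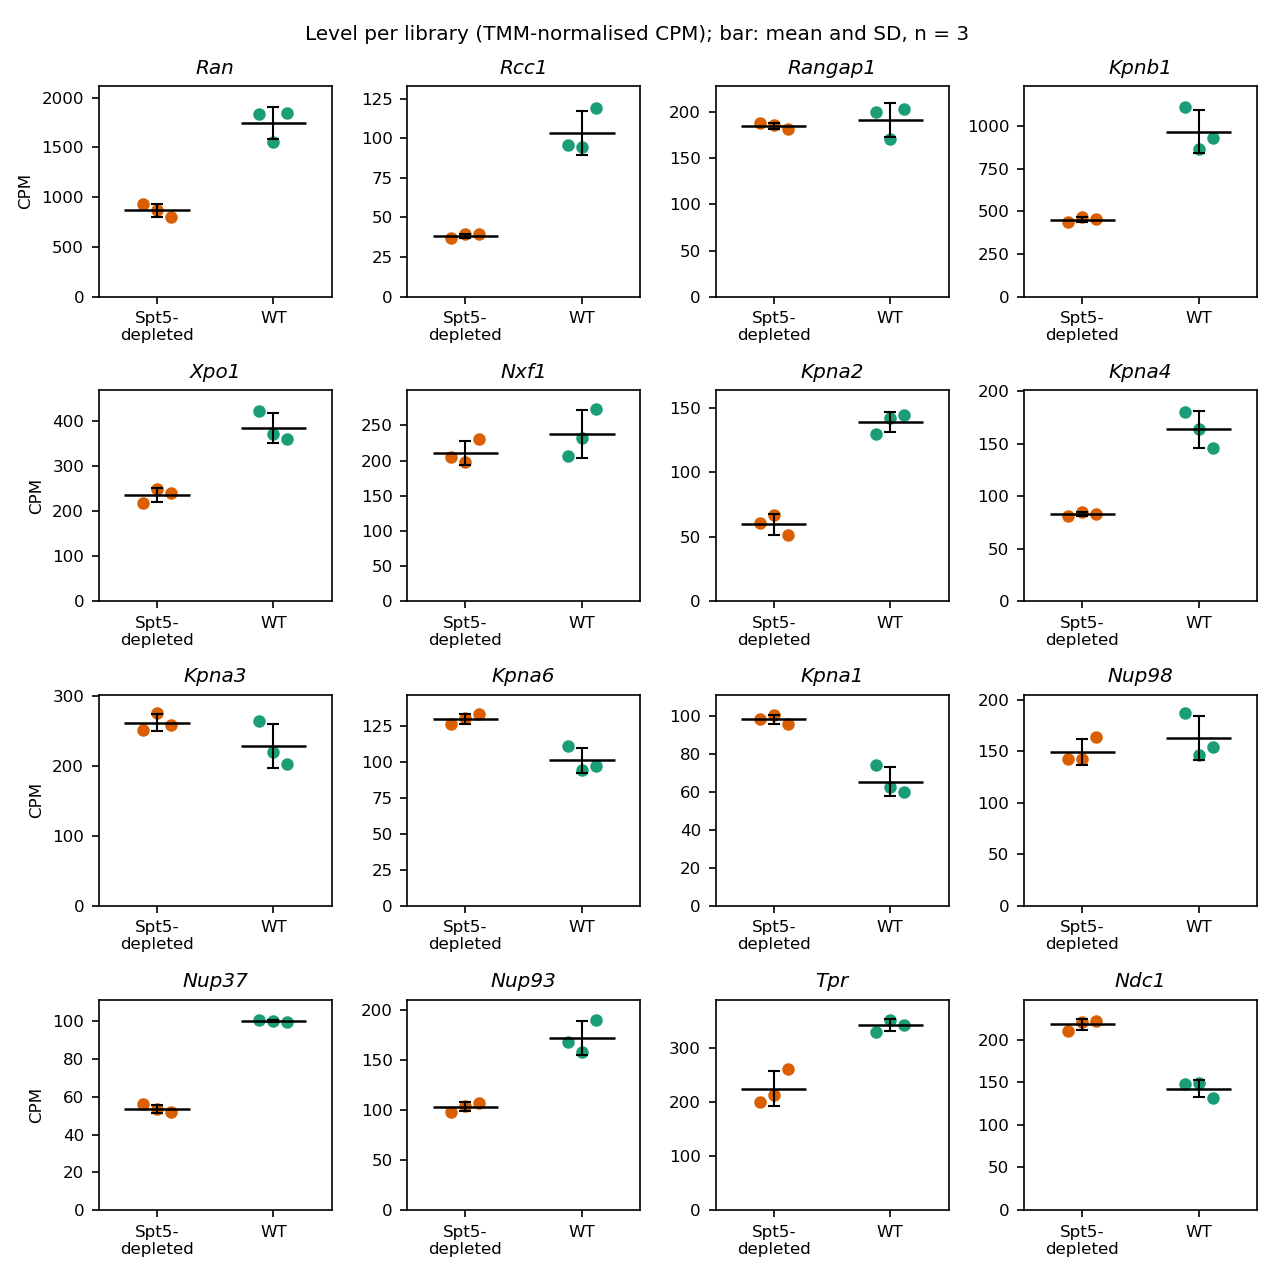
Levels (CPM after TMM scaling, y axes from 0) of 16 transport genes in each of 3 Spt5-depleted and 3 WT libraries, with the mean and SD. Ran, Rcc1, Kpnb1, Kpna2 and Kpna4 have every depleted library well below every WT library, Rangap1 and Nxf1 overlap, and Kpna1, Kpna6 and Ndc1 are higher in every depleted library.

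The importin alpha adaptors, which bind the classical nuclear localisation signal and link cargo to importin beta, went both ways. Kpna2 had 60.4, 66.7 and 51.2 CPM in Spt5-depleted libraries, against 130, 142 and 145 CPM in WT libraries (-1.22 ± 0.10 SE, edgeR adjusted p = 1.37e-07). Kpna4 had 81.1, 84.6 and 83.1 CPM in depleted libraries, against 180, 165 and 146 CPM in WT libraries (-0.98 ± 0.09 SE, adjusted p = 4.88e-07). Both fell with no overlap between the groups. Kpna1 had 98.3, 100.3 and 95.3 CPM in depleted libraries, against 73.8, 62.3 and 59.6 CPM in WT libraries (0.59 ± 0.09 SE, adjusted p = 8.15e-05). Kpna6 had 127, 130 and 134 CPM in depleted libraries, against 111, 94.7 and 97.4 CPM in WT libraries (0.37 ± 0.09 SE, adjusted p = 0.00211). Both of these rose, again without overlap. Kpna3, the closest relative of Kpna4, averaged 262 ± 12.3 CPM in depleted cells and 229 ± 31.2 CPM in WT cells (SD, n = 3 each). It was not called (0.19, edgeR adjusted p = 0.102), but passed with library totals alone (0.35, adjusted p = 0.00659) and without WT replicate 1 (0.30, adjusted p = 0.00887).

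The adaptors were also set against each other within libraries. Kpna2 counts were 0.615, 0.666 and 0.537 of those of Kpna1 in Spt5-depleted libraries, against 1.76, 2.28 and 2.43 times in WT libraries. Kpna4 counts were 0.323, 0.307 and 0.321 of those of Kpna3 in depleted libraries, against 0.684, 0.748 and 0.716 in WT libraries. In both pairs every depleted library was below every WT library. These ratios are of reads, not of molecules, because genes differ in length.

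**Figure D4:**
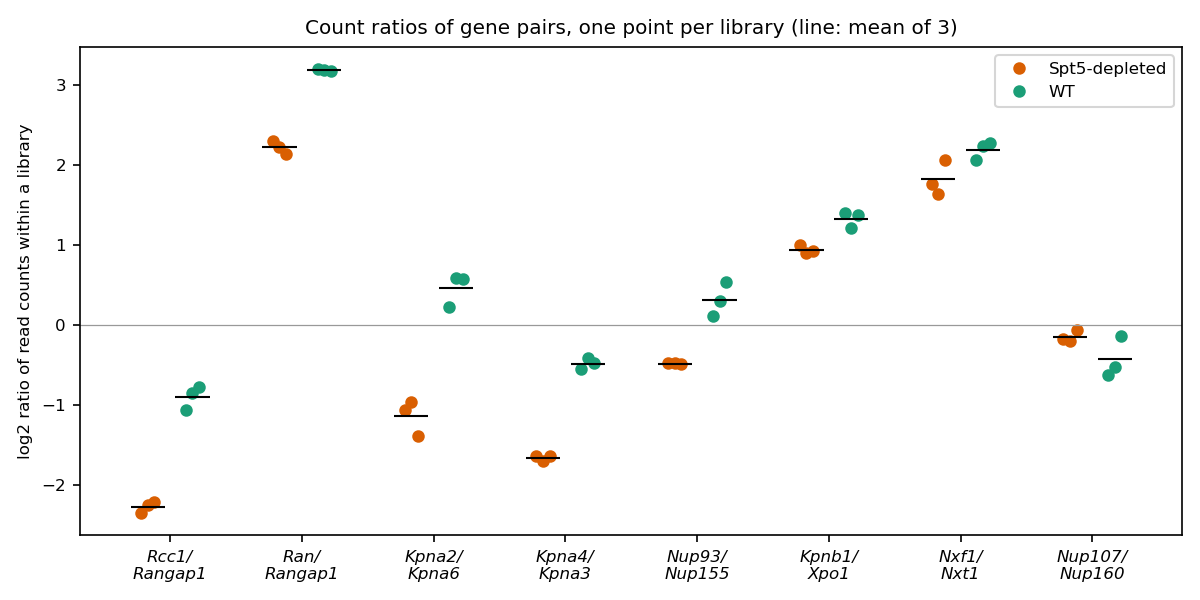
Log2 ratio of the read counts of 2 genes within each library (y axis) for 8 pairs of transport genes, with 1 point per library and a line at the mean of 3, Spt5-depleted left of WT. The groups are apart in 7 pairs and overlap for Nup107 over Nup160.

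Among the 11 import receptors of the importin beta family 5 fell and 0 rose (30.6% and 31.8% of all tested genes). Kpnb1, importin beta itself, had 434, 464 and 456 CPM in Spt5-depleted libraries, against 1109, 863 and 927 CPM in WT libraries (-1.10 ± 0.10 SE, edgeR adjusted p = 3.23e-07). Ipo5, which carries ribosomal proteins and histones, had 366, 366 and 376 CPM in depleted libraries, against 603, 508 and 562 CPM in WT libraries (-0.59 ± 0.09 SE, adjusted p = 3.60e-05). In both genes every depleted library was below every WT library. The other 3 that fell were Ipo7 (-0.65), Tnpo1, a carrier of hnRNP proteins (-0.53), and Ipo4 (-0.32), whose call was lost without Spt5-depleted replicate 1 (edgeR adjusted p = 0.0544). The 6 that were not called had log2 fold changes near 0: Ipo11 at -0.10, Tnpo2 at 0.08, Ipo13 at 0.08, Ipo9 at 0.10, Ipo8 at 0.14 and Tnpo3, which carries SR splicing factors, at 0.14. With library totals alone 22.4% of all tested genes fell and 41.3% rose. Under that scaling 4 of these receptors fell (all of the above but Ipo4) and 4 rose (Ipo8, Ipo9, Tnpo2 and Tnpo3). Between these scalings the sign changed for Ipo11 (-0.10 with TMM and 0.06 with library totals) and for no other gene of the 11. Ipo8 also passed as higher without WT replicate 1 (edgeR adjusted p = 0.026).

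Of 6 exportins 4 fell and 0 rose (30.6% and 31.8% of all tested genes). Xpo1, the exportin of proteins with a leucine-rich export signal, had 218, 248 and 240 CPM in Spt5-depleted libraries, against 423, 372 and 359 CPM in WT libraries (-0.71 ± 0.09 SE, edgeR adjusted p = 1.03e-05). Xpot, the tRNA exportin, had 148, 145 and 147 CPM in depleted libraries, against 271, 256 and 223 CPM in WT libraries (-0.76 ± 0.09 SE, adjusted p = 4.07e-06). The groups of both genes were well apart. Xpo5, the exportin of microRNA precursors (-0.26, edgeR adjusted p = 0.0128), and Xpo4 (-0.42, adjusted p = 0.0296) fell less clearly, and Xpo4 had an overlap between the groups. Both calls were lost with library totals alone (adjusted p = 0.305 for Xpo5 and 0.151 for Xpo4); that of Xpo4 was also lost without any 1 of Spt5-depleted replicates 1, 2 and 3 and WT replicate 1 (adjusted p = 0.0911, 0.0549, 0.0934 and 0.0874), and that of Xpo5 without Spt5-depleted replicate 2 (adjusted p = 0.0502). Xpo6, which exports actin, and Xpo7 were not called (0.19 and -0.23). Xpo6 passed as higher with library totals alone and without WT replicate 1 (edgeR adjusted p = 0.00318 and 0.0168), and Xpo7 as lower without WT replicate 2 or 3 (adjusted p = 0.0357 and 0.0155). Kpnb1 counts were 2.00, 1.87 and 1.90 times those of Xpo1 in depleted libraries, against 2.63, 2.32 and 2.58 times in WT libraries, so within each library the import receptor was lower relative to the exportin after depletion.

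The mRNA export receptor was not called. Nxf1 had 206, 197 and 231 CPM in Spt5-depleted libraries, against 206, 233 and 274 CPM in WT libraries (-0.17 ± 0.11 SE, edgeR adjusted p = 0.175), and passed as lower only without WT replicate 1 (-0.27, adjusted p = 0.0309). Its cofactor Nxt1 had 60.6, 63.7 and 55.4 CPM in depleted libraries, against 49.5, 49.4 and 56.9 CPM in WT libraries (0.21 ± 0.09 SE, adjusted p = 0.0687). The groups of each gene overlapped. Nxt1 passed as higher with library totals alone (adjusted p = 0.00343) and without Spt5-depleted replicate 3 or WT replicate 3 (adjusted p = 0.0442 and 0.0151).

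Of the 25 tested genes for pore subunits 16 fell and 4 rose (30.6% and 31.8% of all tested genes). The Y complex, the scaffold of the outer rings, was the role group in which all 7 members taken by the name rule fell. Sec13, a subunit that the rule leaves out, was not called (-0.09, edgeR adjusted p = 0.381). Nup37 had 56.1, 53.4 and 51.8 CPM in Spt5-depleted libraries, against 100.9, 100.3 and 99.5 CPM in WT libraries (-0.90 ± 0.08 SE, edgeR adjusted p = 3.72e-07). Nup43 had 37.8, 39.1 and 36.3 CPM in depleted libraries, against 61.8, 64.5 and 77.8 CPM in WT libraries (-0.85 ± 0.10 SE, adjusted p = 4.50e-06). These 2 peripheral subunits had the largest falls of the complex, ahead of Nup160 (-0.57), Nup133 (-0.52), Nup85 (-0.43) and Seh1l (-0.38). Nup107, a core subunit, fell least of the 7, with 100.3, 104.8 and 109 CPM in depleted libraries, against 126, 121 and 135 CPM in WT libraries (-0.28 ± 0.08 SE, edgeR adjusted p = 0.00939). All 7 genes had depleted libraries wholly below WT libraries, as did 33.3% of all tested genes. The call of Nup107 was lost with library totals alone (adjusted p = 0.241) and without Spt5-depleted replicate 1 (adjusted p = 0.0513).

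The inner ring, which lines the wall of the channel, was split. Nup93 had 98.2, 104.1 and 107 CPM in Spt5-depleted libraries, against 168, 157 and 190 CPM in WT libraries (-0.74 ± 0.09 SE, edgeR adjusted p = 6.72e-06). Nup35 had 71.7, 68.5 and 66.0 CPM in depleted libraries, against 93.7, 83.4 and 83.6 CPM in WT libraries (-0.34 ± 0.09 SE, adjusted p = 0.00349). Both fell without overlap, as did Nup205 (-0.34, edgeR adjusted p = 0.00371); with library totals alone Nup35 and Nup205 were not called (adjusted p = 0.0844 and 0.0914). Nup155 and Nup188 were not called (0.06 and 0.01). Nup93 counts were 0.829, 0.932 and 0.903 of those of Nup188 in depleted libraries, against 1.39, 1.42 and 1.66 times in WT libraries, with the groups apart.

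In the central channel, where subunits rich in phenylalanine-glycine repeats form the barrier, Nup62 had 163, 156 and 159 CPM in Spt5-depleted libraries, against 219, 210 and 232 CPM in WT libraries (-0.47 ± 0.08 SE, edgeR adjusted p = 0.000177). Nup54, its partner, had 76.0, 86.5 and 77.6 CPM in depleted libraries, against 90.3, 97.3 and 105 CPM in WT libraries (-0.28 ± 0.09 SE, adjusted p = 0.0134). Both fell without overlap, but Nup54 was not called with library totals alone (adjusted p = 0.251) or without Spt5-depleted replicate 1 or 3 (adjusted p = 0.0684 and 0.0574). Nup98, whose transcript also encodes a Y complex subunit, had 142, 142 and 164 CPM in depleted libraries, against 187, 147 and 154 CPM in WT libraries. The groups overlapped and it was not called (-0.12 ± 0.10 SE, edgeR adjusted p = 0.320).

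In the table the name Nup62 carries a suffix, which some other gene names also have and which may stand for overlapping genes. The neighbouring Il4i1, an amino acid oxidase gene named for its induction by interleukin 4, had 2, 4 and 3 counts in Spt5-depleted libraries and 2, 0 and 0 counts in WT libraries. A joint row of both, Nup62-il4i1, had 6, 5 and 3 counts in depleted libraries and 3, 3 and 0 counts in WT libraries. Neither row was tested, and how reads shared by overlapping genes were counted is not given in the sources used here. Nup62cl, a relative of Nup62, was likewise too low to test, at 6, 3 and 4 counts in depleted libraries and 5, 4 and 10 counts in WT libraries.

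The 3 members grouped under the cytoplasmic face, where mRNA leaves the pore, did not move together. Nup214 had 232, 218 and 247 CPM in Spt5-depleted libraries, against 180, 158 and 153 CPM in WT libraries (0.50 ± 0.09 SE, edgeR adjusted p = 0.000216). Its binding partner Nup88 had 160, 165 and 159 CPM in depleted libraries, against 209, 222 and 225 CPM in WT libraries (-0.44 ± 0.08 SE, adjusted p = 0.000256). Rae1, an mRNA export factor that binds Nup98, had 118, 118 and 109 CPM in depleted libraries, against 141, 135 and 158 CPM in WT libraries (-0.33 ± 0.09 SE, adjusted p = 0.00457). So Nup214 rose and the other two fell, each without overlap; the Nup214 and Nup88 rows carry the overlap suffix, and Rae1 was not called with library totals alone (adjusted p = 0.102).

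In the nuclear basket, the filaments on the inner side of the pore, Tpr had 200.1, 213 and 261 CPM in Spt5-depleted libraries, against 331, 353 and 343 CPM in WT libraries (-0.61 ± 0.10 SE, edgeR adjusted p = 0.000103). Tpr fell without overlap and its row carries the overlap suffix. Nup153 had 240.3, 254 and 273 CPM in depleted libraries, against 327, 313 and 258 CPM in WT libraries (-0.23 ± 0.10 SE, adjusted p = 0.0575). Its groups overlapped; it passed as lower under DESeq2's Wald test (adjusted p = 0.0457), with no filter on low counts (adjusted p = 0.0474) and without WT replicate 3 (adjusted p = 0.00376). Nup50 was not called (-0.20, edgeR adjusted p = 0.0639), although its depleted libraries lay below all WT libraries, and it passed without WT replicate 2 (adjusted p = 0.0299).

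The subunits that anchor the pore in the membrane held 3 of the 4 rises among pore genes. Ndc1 had 211, 222 and 222 CPM in Spt5-depleted libraries, against 148, 149 and 132 CPM in WT libraries (0.61 ± 0.08 SE, edgeR adjusted p = 2.04e-05). Nup210l, a relative of Nup210, had 113, 111 and 223 counts in depleted libraries, against 22, 27 and 39 counts in WT libraries. That was 6.31, 5.20 and 9.65 CPM in depleted libraries, against 0.927, 1.23 and 1.61 CPM in WT libraries, the largest rise of the 52 (2.49 ± 0.27 SE, adjusted p = 2.90e-06). Both genes were higher in every depleted library than in any WT library. Nup210 had 204, 209 and 211 CPM in depleted libraries, against 365, 273 and 268 CPM in WT libraries, and fell (-0.54 ± 0.11 SE, edgeR adjusted p = 0.000676). Pom121 rose by less (0.24, edgeR adjusted p = 0.0369), a call lost without any 1 of Spt5-depleted replicates 1, 2 and 3 and WT replicates 2 and 3 (adjusted p = 0.066, 0.0763, 0.126, 0.0981 and 0.121), and its row carries the overlap suffix, as does that of Seh1l.

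To show the promoters of the genes at both ends of the range, the 250 bases before the annotated start are printed from RefSeq's GRCm38.p6 annotation for the 4 members that fell at least 2-fold and for 2 that rose, Ndc1 and Nup214. The counts themselves were made on another build, mm9. Capitals mark CACGTG (the E-box bound by MYC and related factors), CCAAT, and TGACGT (the core of the cAMP response element), on either strand.
Rcc1 (chr4:132345751-132346000, minus strand): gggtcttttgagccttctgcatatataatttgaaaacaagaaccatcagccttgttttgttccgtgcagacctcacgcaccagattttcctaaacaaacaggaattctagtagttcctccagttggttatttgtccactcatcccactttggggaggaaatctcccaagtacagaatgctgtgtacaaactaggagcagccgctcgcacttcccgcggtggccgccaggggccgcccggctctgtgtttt
Kpna2 (chr11:106999526-106999775, minus strand): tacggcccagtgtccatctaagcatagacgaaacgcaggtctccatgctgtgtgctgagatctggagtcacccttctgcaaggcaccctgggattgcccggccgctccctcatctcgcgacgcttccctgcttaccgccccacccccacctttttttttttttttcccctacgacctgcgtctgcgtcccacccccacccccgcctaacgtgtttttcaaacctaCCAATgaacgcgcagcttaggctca
Kpnb1 (chr11:97187893-97188142, minus strand): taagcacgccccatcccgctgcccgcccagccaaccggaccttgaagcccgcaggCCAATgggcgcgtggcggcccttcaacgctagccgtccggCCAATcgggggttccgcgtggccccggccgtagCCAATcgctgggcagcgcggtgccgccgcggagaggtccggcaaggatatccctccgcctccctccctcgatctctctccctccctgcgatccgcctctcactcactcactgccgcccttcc
Ran (chr5:129019906-129020155, plus strand): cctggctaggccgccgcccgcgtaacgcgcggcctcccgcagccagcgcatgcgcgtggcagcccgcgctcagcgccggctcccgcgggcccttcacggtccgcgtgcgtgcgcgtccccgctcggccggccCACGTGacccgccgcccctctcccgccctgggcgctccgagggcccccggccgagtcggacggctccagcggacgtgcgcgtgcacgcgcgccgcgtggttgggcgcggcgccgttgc
Ndc1 (chr4:107367797-107368046, plus strand): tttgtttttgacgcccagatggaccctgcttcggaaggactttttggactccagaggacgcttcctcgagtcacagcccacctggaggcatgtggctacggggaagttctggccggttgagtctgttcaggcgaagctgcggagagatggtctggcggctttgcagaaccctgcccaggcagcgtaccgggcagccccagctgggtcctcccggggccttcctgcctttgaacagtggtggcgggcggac
Nup214 (chr2:31974200-31974449, plus strand): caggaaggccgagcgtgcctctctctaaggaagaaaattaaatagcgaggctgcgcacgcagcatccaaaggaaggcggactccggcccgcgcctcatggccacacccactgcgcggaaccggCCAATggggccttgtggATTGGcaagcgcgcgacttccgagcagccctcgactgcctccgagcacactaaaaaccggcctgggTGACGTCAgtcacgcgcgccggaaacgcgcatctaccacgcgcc

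The stretch before Kpnb1 held 3 CCAAT boxes and that before Kpna2 held 1. The Ran stretch held 1 E-box, and those of Rcc1 and Ndc1 held none of the 3 motifs. The stretch of Nup214 held CCAAT on each strand and TGACGT on each strand, and those 2 TGACGT matches overlap. Over the whole windows of 300 bases, from 250 before to 50 after the start, RefSeq gave 52 windows for 43 of the 54 members. No window was matched for Nup85, Nup35, Nup43, Kpna1, Nup62-il4i1, Nup210l, Kpna6, Xpo4, Seh1l, Xpo7 and Kpna3. An E-box was in 15.4% of the member windows and 7.15% of all 32851 windows, CCAAT in 48.1% of the member windows and 37.4% of all, and TGACGT in 7.69% of the member windows and 7.51% of all. By gene, 6 of 24 that fell, 0 of 3 that rose and 2 of 15 that were not called had an E-box in a window. A CCAAT box was in a window of 11 of 24 that fell, 1 of 3 that rose and 8 of 15 that were not called. TGACGT was in a window of 1 of 24 that fell, 2 of 3 that rose and 1 of 15 that were not called. The shares over all windows were not limited to genes with counts in these cells, and no matching share by gene was made for them. These matches are descriptions of sequence and carry no statement about binding.

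Other genes of the same pathways, 52 of them tested from 3 lists, were also described: 22 fell and 11 rose (30.6% and 31.8% of all tested genes), with a median log2 fold change of -0.12. In the list of further receptors and Ran factors 5 of 13 fell and 5 rose. Cse1l, the exportin that returns importin alpha to the cytoplasm, averaged 329 ± 13.8 CPM in Spt5-depleted cells and 679.7 ± 26.8 CPM in WT cells (SD, n = 3 each; -1.05 ± 0.08 SE, edgeR adjusted p = 8.40e-08). Ranbp3, a cofactor of Xpo1, also fell (-0.66). Nutf2, which carries Ran back into the nucleus, averaged 27.1 ± 1.92 CPM in depleted cells and 6.02 ± 0.66 CPM in WT cells (SD, n = 3 each; 2.17 ± 0.12 SE, edgeR adjusted p = 2.77e-09); its row carries the overlap suffix. Ranbp6, a relative of Ipo5, rose as well (1.30).

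In the list of mRNA export factors 11 of 24 fell and 3 rose (30.6% and 31.8% of all tested genes). The genes Ddx39b and Ddx39 encode related RNA helicases that load export factors on mRNA. They averaged 153 ± 4.10 and 163 ± 6.48 CPM in Spt5-depleted cells, against 488 ± 62.2 and 381 ± 30.7 CPM in WT cells (SD, n = 3 each). Both fell (-1.67 and -1.22, edgeR adjusted p = 4.07e-09 and 3.15e-08). Both rows carry the overlap suffix, and whether the helicase genes share reads was not tested. Nxt2, a relative of Nxt1, and Ncbp2, a subunit of the nuclear cap-binding complex, rose (0.99 and 0.65). In the list of further pore and envelope genes 6 of 15 fell and 3 rose, with the lamin gene Lmnb1 and the lamin B receptor gene Lbr lower (-0.55 and -0.56) and the SUMO protease gene Senp2 and the envelope gene Sun2 higher (0.81 and 0.54). With library totals alone 7 mRNA export factors rose and 8 fell, and 4 pore and envelope genes rose and 4 fell. Under that scaling 41.3% of all tested genes rose and 22.4% fell.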

How the data were processed

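RNA-seq libraries of Spt5-depleted and WT B cells (3 each) were analysed, and 18 other samples were not used here. Whole, unnormalised read counts for each gene and library were deposited. In the same file are a log2 fold change (Spt5-depleted over WT) and an adjusted p-value deposited by the authors, cited here by naming that table. The tools in the submitters' processing notes are DESeq2 1.10.1, featureCounts 1.5.0-p1, TopHat, Bowtie2 2.1.0 and cutadapt 1.10, with build mm9. Annotation, strand setting and the counting of shared reads were not given in the sources used here. Libraries were made with a Lexogen SENSE kit, per the labels' protocols. Columns headed KO were taken as the Spt5-depleted libraries of the same number. Every row has at least 10 counts over the 6 libraries.

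In R 4.3.3 with edgeR 4.0.16, filterByExpr kept 12024 genes. Libraries were scaled by TMM (factors 1.035 to 1.078 for Spt5-depleted and 0.943 to 0.949 for WT libraries), which would not show a change in total mRNA per cell, and compared with the quasi-likelihood F test (two-sided, robust, Benjamini-Hochberg adjustment over all 12024 genes, threshold 0.05). The SE comes from the F statistic. The fit was tested on simulated data. Within groups, libraries differed beyond sampling noise (chi-square per degree of freedom 6.13 to 31.2).

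Members, role groups and lists were chosen with earlier results of these data known. Fully described are 13 genes fixed by role (Ran, Rcc1, Rangap1, Kpnb1, Kpna2, Xpo1, Nxf1, Nxt1, Tpr, Nup98, Nup153, Nup62 and Nup107) and, per role group, up to 2 risen and 2 fallen genes with the smallest p. Alternatives were DESeq2 size factors, library totals, upper-quartile factors, keeping all genes, a minimum mean of 5 CPM, limma-voom 3.58.1, DESeq2 1.42.0, the replicate number as a block, an adjusted p under 0.01, a 2-fold minimum and leaving out each library. Some marker genes are not reported here.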

Additional observations from a re-analysis of the deposited data

How the results depend on the processing

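The count of transport genes that fell was 29 and stayed between 21 and 31 under the other scalings, filters and tests, the stricter p and the left-out libraries. The count that rose was 6 and went to 13 with library totals alone, which moved the share of higher genes among all calls to 64.8%, against 51.0% with TMM. A minimum of 2-fold left 4 lower and 1 higher transport genes, 917 lower and 1187 higher genes among all tested, and 5 lower and 2 higher genes of the other pathway lists. Leaving out each library gave 25 to 31 lower and 5 to 9 higher transport genes. No pairing by replicate number was seen in the counts, but 3 libraries a group are too few to exclude one. Deviations of libraries of the same number had correlations of 0.03, -0.05 and -0.03, and not every library correlated best with its own number. With the replicate block 29 transport genes were lower and 6 higher. Without rows with an overlap suffix, a choice made after seeing the data, 25 were lower and 4 higher.

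Of the 35 called members 26, of which 21 were lower and 5 higher, kept direction and call in every one of the up to 14 alternative fits that could test them. The 9 others are named in the report with the fits that lost them. No member called here changed sign in a fit. The cause of the lost calls was not tested. With 3 libraries a group, a member that was not called is not shown to be unchanged. A minimum mean of 5 CPM leaves Nup210l untested.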
